A study of Mus musculus with 72 samples.

Results

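DNA methylation of promoter CpG islands and of a LacZ reporter was compared between knockout and wild-type heart in 3 mouse lines, Arap, Dstn and Rgcc. The libraries were chosen by the heart code in their titles, which gave 9 of the 72 samples of the series, 3 for each line. One library covered the promoter island in knockout heart, the next the island in wild-type heart, and the last the LacZ sequence in knockout heart. The mice were on a C57BL/6N background and 7 weeks old. Knockouts were labelled Arap -/-, Dstn -/- or Rgcc -/- and carried tm1a, a Knockout Mouse Project allele with a neo selection cassette and a LacZ reporter under the gene's own promoter. Wild-type mice were labelled only as such. The labels do not say how many animals gave a heart, or whether the tissues of a line came from the same animals.

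CpG islands are stretches rich in CpG dinucleotides that cover many promoters and are usually unmethylated whether or not the gene is active. Dense methylation of a promoter island goes with stable silencing of its gene, and inserted bacterial reporter sequence, which is itself rich in CpG, is a frequent target of methylation in mice. Bisulfite converts unmethylated cytosine, so that the share of reads keeping a cytosine gives the methylation level of a site. Arap1, to which the label accession of the Arap line belongs, encodes a GTPase-activating protein for small GTPases. Dstn encodes destrin, an actin-depolymerizing protein, and Rgcc a regulator of the cell cycle.

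The promoters differ in how densely CpG sites are packed, so the bases before each start are shown, from RefSeq on GRCm38.p6, in lower case with each CpG in capitals. The Arap1 stretch begins at the first CpG covered by the libraries and the others are the whole 250 bases before the start.
Arap1 (chr7:101347967-101348068, + strand): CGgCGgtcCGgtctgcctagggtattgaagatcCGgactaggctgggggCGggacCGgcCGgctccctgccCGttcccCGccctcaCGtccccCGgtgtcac
Dstn (chr2:143915081-143915330, + strand): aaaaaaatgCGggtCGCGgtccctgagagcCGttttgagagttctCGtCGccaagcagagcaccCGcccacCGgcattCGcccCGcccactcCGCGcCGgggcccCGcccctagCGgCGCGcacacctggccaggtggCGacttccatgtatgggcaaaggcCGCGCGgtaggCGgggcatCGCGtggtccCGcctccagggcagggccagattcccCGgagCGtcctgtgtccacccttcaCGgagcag
Rgcc (chr14:79301636-79301885, - strand): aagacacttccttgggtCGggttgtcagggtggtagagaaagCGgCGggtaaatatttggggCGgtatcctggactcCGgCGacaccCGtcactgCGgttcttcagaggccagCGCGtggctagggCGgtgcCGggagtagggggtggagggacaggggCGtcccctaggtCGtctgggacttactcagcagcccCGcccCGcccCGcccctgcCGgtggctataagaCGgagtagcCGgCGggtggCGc
In the full 250 bases before the start, the count of CpG was 13 for Arap1, 28 for Dstn and 22 for Rgcc, against a median of 6 over 32851 RefSeq promoters. The share of all promoters with at least as many was 31.5% for Arap1, 7.61% for Dstn and 14.8% for Rgcc. The deposited positions are in mm9, and the starts were placed on them by the spacing of CpG sites alone, which matched 21 of 21 CpG within the covered span for Arap1, 31 of 31 for Dstn and 26 of 26 for Rgcc. The next best placements matched 8, 7 and 7. Distances below are counted from these starts in the direction of transcription.

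In mm9 coordinates, the sites covered in both heart libraries spanned chromosome 7 from 108496480 to 108496726 for Arap (33 sites), chromosome 2 from 143740490 to 143741399 for Dstn (78 sites) and chromosome 14 from 79700866 to 79701694 for Rgcc (67 sites). The 6 island libraries held 401114 to 4109180 methylation calls, with a median of 5015 to 132619 reads a site, and the 3 LacZ libraries held 1413280 to 2993584 calls. The mean level of a heart library had a 95% counting margin of at most 0.475 percentage points. Intervals cover counting error only, since amplified reads were not tagged by molecule and are not independent. Each genotype of a line has 1 heart library, so a difference within a line has no replicate check inside heart. Comparisons beyond 1 library pair were made over the 3 lines, and between heart and the other tissues of the same line. Of these tissues Arap had 4, Dstn 5 and Rgcc 2. They are not replicates of heart, and taking the spread from them assumes that heart varies as they do. The wild-type Rgcc libraries carry the mapping accession of another line in their labels, but their files list the Rgcc positions.

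Island methylation was low in heart in both genotypes and higher in the knockout by 0.125 to 2.47 points, with the widest difference in Rgcc. In Arap the level was 1.31% in knockout and 0.633% in wild-type heart, a difference of 0.677 points, which was -0.074 points when sites under 10 reads were also used. In Dstn it was 4.13% and 4.01%, a difference of 0.125 points. In Rgcc it was 9.23% and 6.76%, a difference of 2.47 points. Over the lines the mean difference was 1.09 ± 1.22 points (SD, n = 3), with the knockout higher in 3 of 3, or in 2 of 3 with no read minimum. It rested mostly on Rgcc, since it was 0.401 points without Rgcc, 1.30 without Arap and 1.57 without Dstn. The two-sided exact sign-flip permutation test gave p = 0.25, which is the smallest that 3 lines allow.

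Part of these means comes from a few sites with high measured levels in wild type as well. Sites with a mean of at least 5% over the wild-type libraries of the other tissues numbered 0 in Arap, 8 in Dstn and 8 in Rgcc. In Dstn heart they ran from 7.97% to 99.7% in the knockout and from 13.6% to 99.2% in wild type, and in Rgcc heart from 3.97% to 93.7% and from 3.06% to 95.4%. Of these 16 sites, 10 (62.5%) lay where read depth stepped by at least 1.5-fold from one site to the next, against 40 of the other 160 sites (25%). The part of such depth steps in these levels was not tested. Without the 16 sites the heart levels were 0.430% in knockout and 0.524% in wild type for Dstn, and 3.77% and 1.19% for Rgcc, which left differences of -0.094 and 2.58 points. The mean over lines was then 1.06 ± 1.38 points (SD, n = 3), with the knockout higher in 2 of 3 lines and p = 0.5 by the same exact test.

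**Figure D1:**
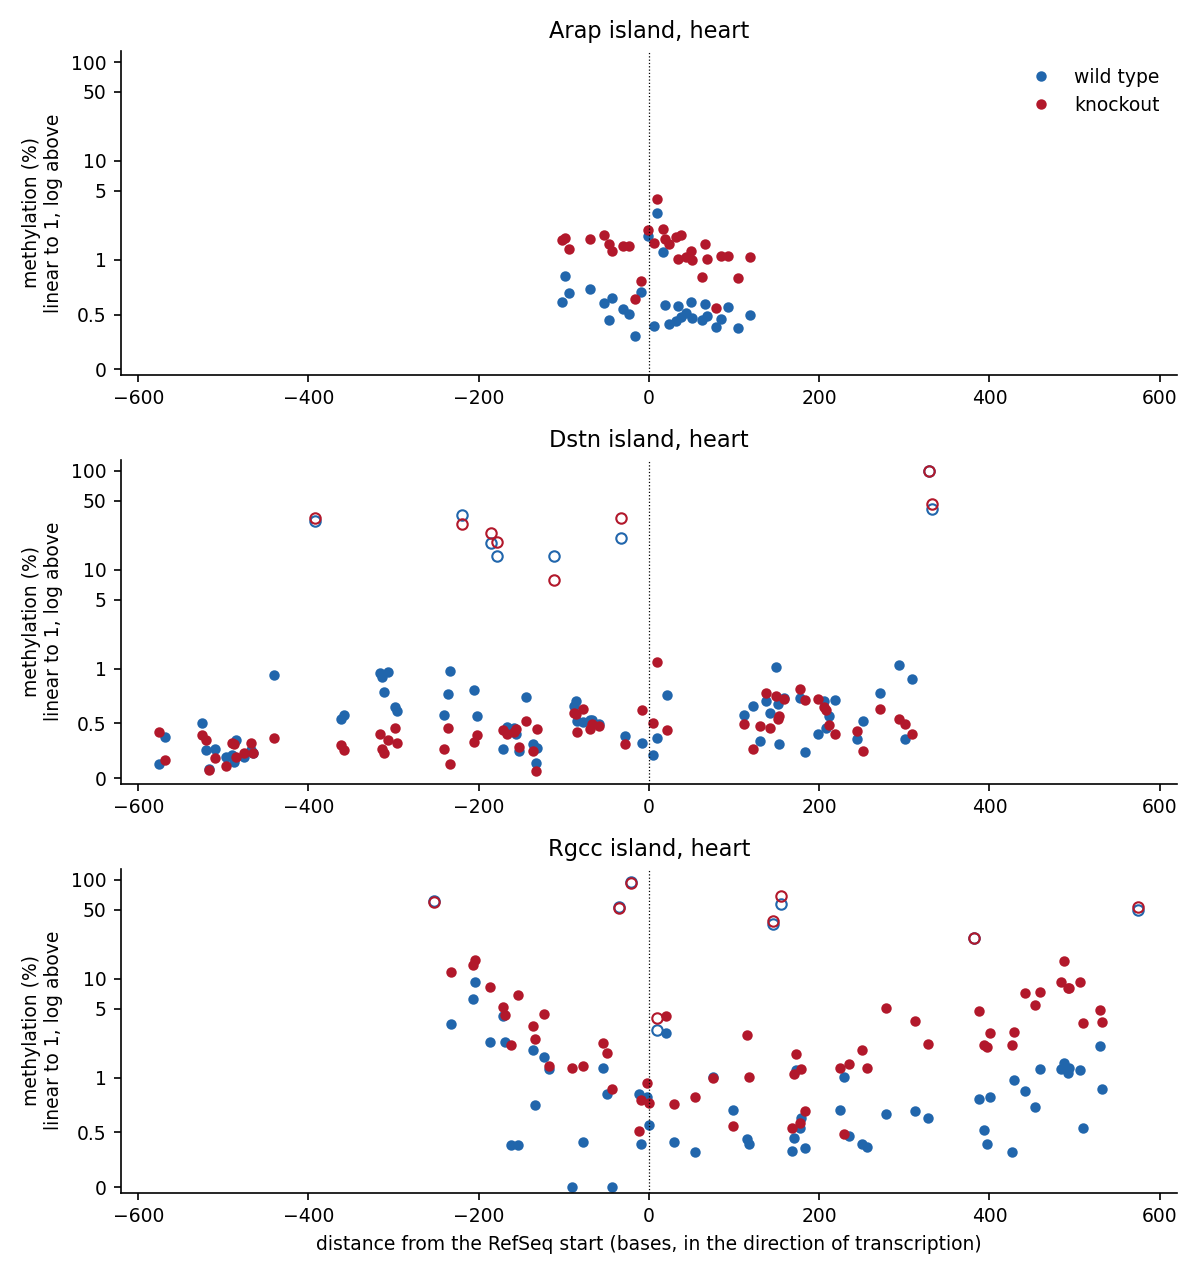
Methylation of each island site in knockout (red) and wild-type (blue) heart against distance from the RefSeq start in bases, for sites with at least 10 reads in every island library of the line; open circles are sites of at least 5% in wild type of the other tissues. The vertical axis is linear to 1% and logarithmic above. Every Arap point of the knockout lies above its wild-type partner, while in Rgcc the genotypes part beyond 250 bases after the start and, on fewer reads, more than 100 bases before it.

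The Arap island was low in heart, and the knockout lay above wild type at every site covered in all island libraries of the line. At the 31 sites covered in every island library of the line, knockout heart ranged from 0.557% to 4.15% with a median of 1.37%, and wild-type heart from 0.306% to 2.97% with a median of 0.549%. The knockout was higher at 31 of 31 sites, by 0.101 to 1.31 points, and at 30 of them the gap exceeded the summed counting intervals. These sites were read in the same pair of libraries and are not independent checks. How much unmethylated cytosine was left unconverted was not measured here, and its part in these differences was not tested. No site moved by 2 points or more (0% of 31). Before the start the 12 sites had a mean difference of 0.698 points, and the 19 sites from the start to 119 bases after it 0.735 points, so the difference lay on both sides. The widest difference was at chromosome 7 position 108496620, 38 bases after the start, with 1.78% (95% Wilson interval 1.68 to 1.89) in the knockout and 0.476% (0.442 to 0.514) in wild type. The next were position 108496614 with 1.71% and 0.443%, and position 108496592, with 4.15% and 2.97%, the highest site of the island in both genotypes. The smallest differences were at position 108496573 with 0.804% and 0.703%, and position 108496661 with 0.557% and 0.391%.

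The same direction was seen in 3 of the other 4 Arap tissues. The knockout was higher at 31 of 31 sites in brain, 29 in kidney and 30 in lung, but at 9 in liver, where wild type had 3.08% against 0.532% to 0.633% in the other tissues and heart. The mean difference was 0.688 points in brain, 0.226 in kidney, 0.271 in lung and -0.836 in liver, which placed heart at rank 2 of 5. With the spread taken from the other tissues, the quasi-likelihood test of edgeR called 0 of 31 sites in heart (0%) at a Benjamini-Hochberg adjusted p of 0.05, with 6 at an unadjusted p of 0.05, and limma called 0 with 5. The smallest edgeR adjusted p was 0.193, at position 108496535, with 1.44% in the knockout and 0.447% in wild type. Without liver the same test called 23 of 31 sites (74.2%), all higher in the knockout, so the Arap count rests on that tissue.

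The Dstn island was low in both genotypes of heart, and slightly lower in the knockout at most sites. At the 70 sites under 5% in wild type of the other tissues, knockout heart had a median of 0.426% and wild-type heart 0.523%, and the knockout was higher at 24 and lower at 46. The differences ran from -0.849 to 0.812 points. The part of incomplete bisulfite conversion in differences this small was not tested. In the other tissues the knockout was higher at 39 of these sites in brain, 40 in kidney, 43 in liver, 48 in lung and 39 in spleen. Heart had the lowest mean difference of the 6 tissues at these sites, -0.094 points against -0.0169 to 0.332. Its knockout level of 0.430% fell within the range of the others, 0.405% to 0.707%, whereas its wild-type level of 0.524% was above all of theirs, 0.375% to 0.440%.

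That wild-type level was uneven along the island, a stretch picked out here after its values were seen. From -400 to -300 bases, 6 low sites averaged 0.793% in wild-type heart and 0.303% in knockout heart. Wild type of the other tissues averaged 0.212% to 0.370% there. From -300 to -200 bases, 7 low sites averaged 0.708% in wild-type heart and 0.338% in the knockout, against 0.385% to 0.503% in wild type elsewhere. None of these low sites was higher in knockout heart. In the adjoining window from -200 to -100 bases the 9 low sites averaged 0.370% and 0.366%, so the genotypes were level again at low sites. Sites of at least 5% in wild type of the other tissues are left out of these windows, and their differences ran from -6.94 to 5.22 points. The site with the smallest adjusted p, chromosome 2 position 143740832 at -234 bases, belongs to the stretch from -400 to -200 bases. It had 0.128% (95% Wilson interval 0.0934 to 0.176) in the knockout and 0.977% (0.826 to 1.16) in wild type, on 29659 and 13714 reads, with an edgeR adjusted p of 0.386.

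The widest Dstn differences were all at sites of at least 5% in wild type of the other tissues, and they went both ways. Position 143741033, at -33 bases, had 33.3% in the knockout and 21.2% in wild type, position 143740880 had 23.7% and 18.5%, and position 143740887 had 18.9% and 13.9%. Position 143740846 had 29.3% and 36.2%, and position 143740954 had 7.97% and 13.6%. These sites also varied between tissues of 1 genotype, and over the other tissues position 143741033 ran from 28.7% to 45.7% in the knockout and from 21.7% to 31.9% without it. Differences of at least 2 points were found at 6 of 78 sites in heart (7.69%), and at 3 sites in liver (3.85%) to 7 in kidney and in spleen (8.97%). edgeR called 0 of 78 sites in heart (0%), with 5 at an unadjusted p of 0.05, and limma 0 with 5.

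The Rgcc island had the largest heart difference, and of the 3 regions before the start, up to 250 bases after it and beyond, the last had the widest mean difference at low sites, 4.39 points. At the 59 sites under 5% in wild type of the other tissues, the median was 2.19% in knockout and 0.746% in wild-type heart, and the knockout was higher at 55. Differences of at least 2 points were found at 24 of 67 sites (35.8%), and the knockout was higher at all 24. In lung it was 24 sites (35.8%), 20 of them higher in the knockout, and in muscle 26 (38.8%), with 22 higher. At the 21 low sites from 256 to 532 bases after the start, the knockout averaged 5.29% and wild type 0.894%, and the knockout was higher at 21 of 21, by 0.890 to 13.9 points. At the 18 low sites from the start to 250 bases after it, the averages were 1.26% and 0.708%, with the knockout higher at 15, and at the 20 low sites before the start the mean difference was 2.52 points. After the start the difference at low sites was wider with distance, from 0.652 points between 100 and 200 bases to 1.28, 2.36 and 5.86 points in the next windows of 100 bases. It was 4.13 points beyond 500 bases. The window from 100 to 200 bases leaves out sites of at least 5% in wild type of the other tissues at 146 and 155 bases, with differences of 2.11 and 10.8 points.

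The widest difference was at chromosome 14 position 79700954, 487 bases after the start. It had 15.3% (95% Wilson interval 14.6 to 16.0) in knockout heart and 1.41% (1.20 to 1.65) in wild-type heart, on 10025 and 10697 reads. The same site had 15.0% and 0.925% in lung and 12.6% and 0.794% in muscle. Its heart effect had an edgeR adjusted p of 2.96e-05 and a limma adjusted p of 0.184. The next widest were position 79701286, an elevated site with 68.2% and 57.4%, and position 79701673, at -232 bases, with 11.8% and 3.50% on 229 and 257 reads. The most negative differences were at position 79701462 with 93.7% and 95.4%, and position 79701476 with 51.7% and 53.3%, both elevated sites just before the start.

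edgeR called 15 of 67 sites higher in knockout heart (22.4%) and 0 lower, with a Benjamini-Hochberg adjusted p of 0.05. On simulated counts this test made more false calls than the nominal rate, so some of the 15 may be false. Of these, 14 lay more than 250 bases after the start, among 21 low sites there, and the remaining one lay at 115 bases. At the called sites knockout heart ranged from 2.12% to 15.3% and wild-type heart from 0.325% to 1.41%, on at least 5014 and 5349 reads. The limma test on logit values called 0 of the 67, with 15 at an unadjusted p of 0.05, and the edgeR count rests on 1 residual degree of freedom a site. The knockout was also higher at 15 of these 15 sites in lung, by a median of 3.16 points, and at 15 of 15 in muscle, by 4.50 points, against 4.66 points in heart. Heart had the largest of the 3 differences at 7 of them. At the 44 low sites not called, the knockout was higher at 39 in lung and at 32 in muscle, so this direction was common at low sites. Lung and muscle also give the spread of the test, so they are no separate check on its calls. A fit with 1 genotype effect for all tissues called 27 of 67 sites (40.3%), including all 15. It used the same libraries, the heart pair included, so it is no separate check on the 15.

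Upstream of the start the Rgcc values were less settled. From -300 to -200 bases, 3 low sites averaged 13.7% in knockout and 6.32% in wild-type heart, and from -200 to -100 bases 9 sites averaged 4.24% and 1.67%. The differences there were 7.38 and 2.57 points in heart, 2.13 and 0.665 in lung, and 6.22 and 3.24 in muscle. Read depth at the low sites fell to 224 in the knockout and 236 in wild-type heart on this side, and none of the sites before the start was called. The muscle knockout library was shallower, with a median of 1050 reads a site over the island, against 5015 in knockout heart, and a lowest of 81.

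**Figure D2:**
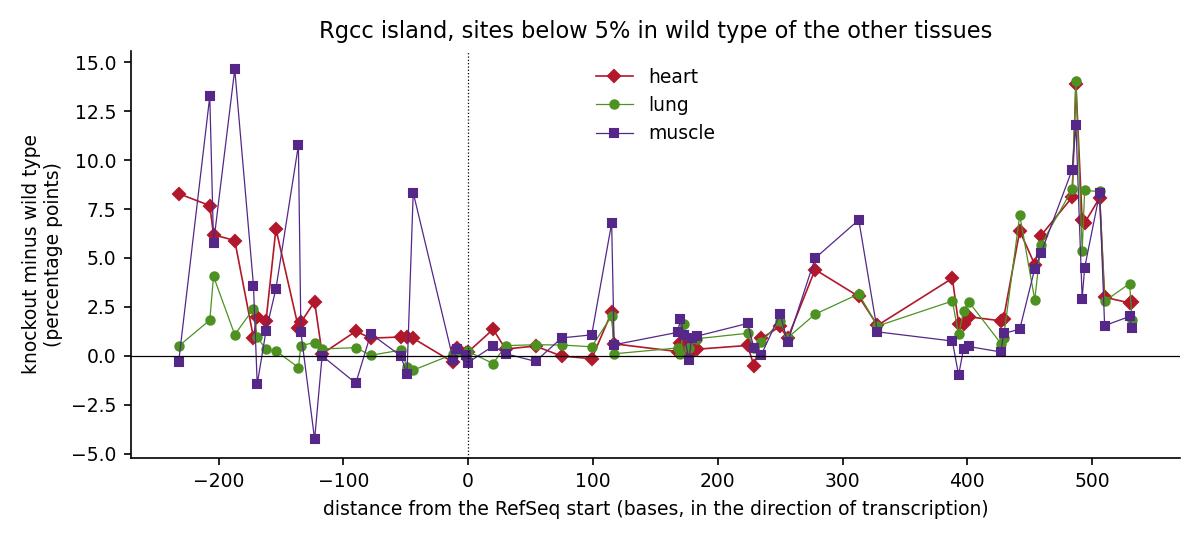
Knockout minus wild-type methylation, in percentage points, at the Rgcc sites under 5% in wild type of the other tissues, against distance from the RefSeq start in bases, in heart (red diamonds), lung (green circles) and muscle (purple squares). The 3 tissues follow each other beyond 250 bases after the start, where heart peaks at 13.9 points, and scatter more before the start.

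Whether heart stood apart from the other tissues was tested directly. Averaged over lines, the knockout minus wild-type difference was 0.380 points wider in heart than in the other tissues of the same line, with p = 0.244 (adjusted p = 0.756) in a two-sided exact permutation test of the heart label within lines, over 90 arrangements. The lines did not share a direction, with 0.590 points in Arap, -0.140 in Dstn and 0.689 in Rgcc, and the mean ran from 0.225 points without Rgcc to 0.640 without Dstn. The same exact test gave 0.341 points for the knockout level (p = 0.378, adjusted p = 0.756) and -0.0385 points for the wild-type level (p = 1, adjusted p = 1). The adjusted values cover 4 comparisons, the last being LacZ. Per site, the interaction of genotype with heart was called at 0 of 31 Arap, 0 of 78 Dstn and 0 of 67 Rgcc sites by edgeR (0% in each), with 0, 6 and 1 at an unadjusted p of 0.05, and limma also called 0 in each. In Dstn without lung, 1 site was called, lower in heart. These tests do not show that heart acts like the other tissues, because each rests on 1 heart pair per line.

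One way of summarising the knockout level gave another outcome. By the median over sites, knockout heart was the highest tissue in each line, with 1.28% against 0.741% to 1.15% in Arap, 0.445% against 0.403% to 0.436% in Dstn and 2.82% against 1.92% to 2.25% in Rgcc. The exact permutation test then gave p = 0.0111, the smallest that 90 arrangements allow. This was 1 of 7 ways of computing the level, is not adjusted for them, and the exact p of the other 6 ran from 0.356 to 0.789.

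The LacZ reporter, measured only in knockouts, differed far more between hearts than the islands did. Over the 158 sites covered in every LacZ library of the 3 lines, the mean level was 68.2% in Dstn heart, 27.8% in Arap heart and 14.8% in Rgcc heart. Across the tissues of a line the SD was 15.4 points in Dstn (n = 6), 18.5 in Arap (n = 5) and 3.07 in Rgcc (n = 3). Dstn and Arap hearts thus lay 40.4 points apart, and Arap and Rgcc 13.0 points, which is less than the spread over Arap tissues. The order of the lines for LacZ was the reverse of that for the island difference, since Dstn heart had the highest LacZ level and the lowest island difference, and Rgcc the converse. With 3 lines this is given as values, with no test.

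Of these sites, 16 had an SD under 7 points over the 21 LacZ libraries of other tissues in all lines of the series and are called near-constant here. In heart the 3 lines differed by a median of 4.72 points at these sites, against 58.2 points at the other 142. Without them the levels were 70.1% in Dstn, 25.3% in Arap and 10.8% in Rgcc. Dstn was the highest of the 3 hearts at 120 of the 142 sites, Arap at 22, and Rgcc was the lowest at 137.

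In Dstn heart the level differed between stretches of the reporter. The sites fall into 7 stretches, set after seeing the data at gaps in coverage and at near-constant sites. Steps in level between stretches thus fall at these ends, and the part of amplification in them was not tested. In Dstn heart the median of a stretch was 95.5% from position 162 to 405 of the LacZ reference, 68.8% from 491 to 710, 96.5% from 949 to 1213 and 52.8% from 1482 to 1627, the last on a median of 71 reads a site. Further on it was 97.2% from 1823 to 2053, 56.9% from 2213 to 2412 and 15.4% from 2656 to 2868. At 65 of the 142 sites Dstn heart exceeded 90%. From 1823 to 2053 the levels stayed close, with all sites between 96.2% and 98.4%.

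The hearts of the other lines differed less between stretches. Stretch medians ran from 17.5% to 32.2% in Arap heart and from 7.61% to 11.8% in Rgcc heart, ranges of 14.8 and 4.22 points against 81.8 in Dstn heart. Dstn brain, kidney, liver and spleen had ranges of 73.8 to 80.2 points and Dstn lung 42.1 points. In the last stretch the order of the lines changed, with 29.0% in Arap heart, 15.4% in Dstn heart and 10.8% in Rgcc heart, and Arap was the highest at 21 of 21 sites there. In that stretch every Dstn tissue had a median of 13.9% to 19.7%.

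**Figure D3:**
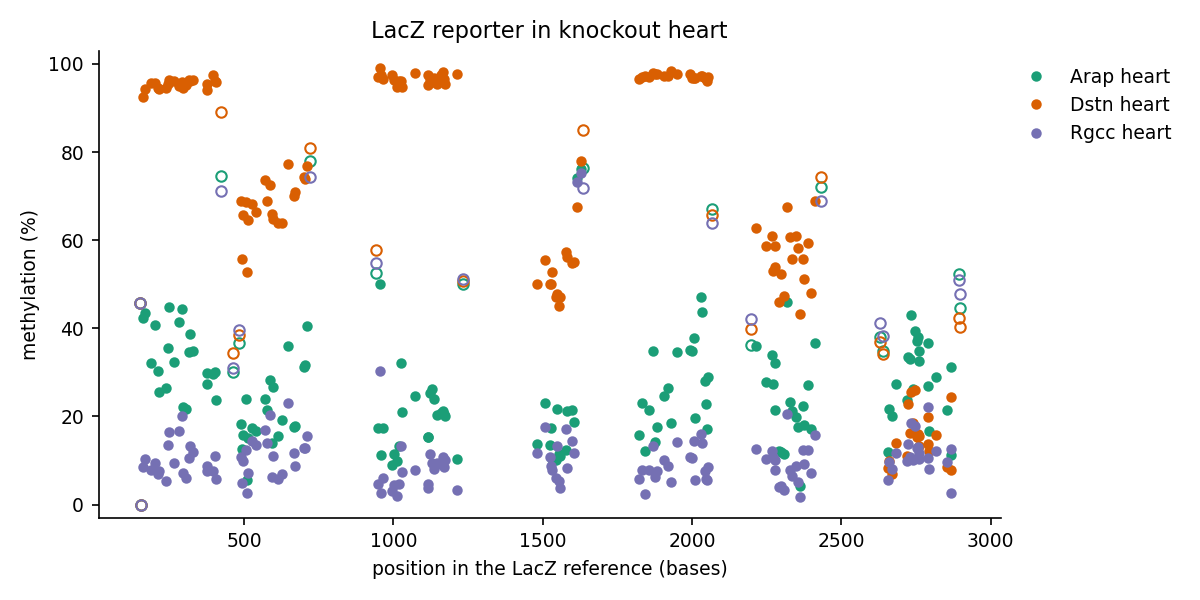
Methylation of each LacZ site in the knockout hearts of Arap (green), Dstn (orange) and Rgcc (purple) against position in the LacZ reference in bases; open circles are near-constant sites, with an SD under 7 points over LacZ libraries of the other tissues. Dstn heart has medians of 95.5% to 97.2% in 3 stretches and 15.4% in the last, where Arap is higher.

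The sites with the widest range over the hearts were in the stretches from 949 and from 1823. Position 1843 had 97.3% in Dstn, 12.2% in Arap and 2.34% in Rgcc heart. Position 958 had 97.4%, 11.2% and 2.54% in the same order, and position 994 had 97.5%, 8.97% and 3.15%. The highest site was position 956 in Dstn heart with 99.1%, where Arap had 50.2% and Rgcc 30.4%. In Arap heart it was the near-constant position 722 with 78.0%, beside 80.9% in Dstn and 74.5% in Rgcc, and in Rgcc heart position 1627 with 75.2% on 109 reads. Position 1627 was high in each heart, with 76.3% in Arap and 78.0% in Dstn, the latter on 41 reads. Its SD of 8.55 points over the other tissues was just above the limit for near-constant sites. Position 156 was lowest in each heart, with 0 methylated of 28 reads in Arap, 28 in Dstn and 36 in Rgcc, which, taking 3 counts as the limit that a count of 0 allows, leaves room for a level of up to 10.7%, 10.7% and 8.33%.

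The test over tissues did not set heart apart in LacZ level. Averaged over lines it was 0.458 points above the other tissues of its line (p = 0.967, adjusted p = 1, two-sided exact permutation over 90 arrangements), from -10.5 points in Arap, 9.98 in Dstn and 1.94 in Rgcc. In Arap heart ranked 4 of 5, below liver with 66.8%, lung with 36.6% and kidney with 32.2%, and above brain with 17.6%. In Dstn it ranked 3 of 6, close to spleen with 71.5%, brain with 70.8% and kidney with 66.8%, and above liver with 47.5% and lung with 34.3%. In Rgcc it lay between muscle with 15.7% and lung with 9.96%. The first part of the reporter, to position 1030, exceeded the last, from 1992, by 33.3 points in Dstn heart, and was lower by small amounts in the others, -1.52 points in Arap and -0.779 in Rgcc. Over the hearts the mean was 10.3 ± 19.9 points (SD, n = 3), with p = 1 by the two-sided exact sign-flip permutation test.

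**Figure D4:**
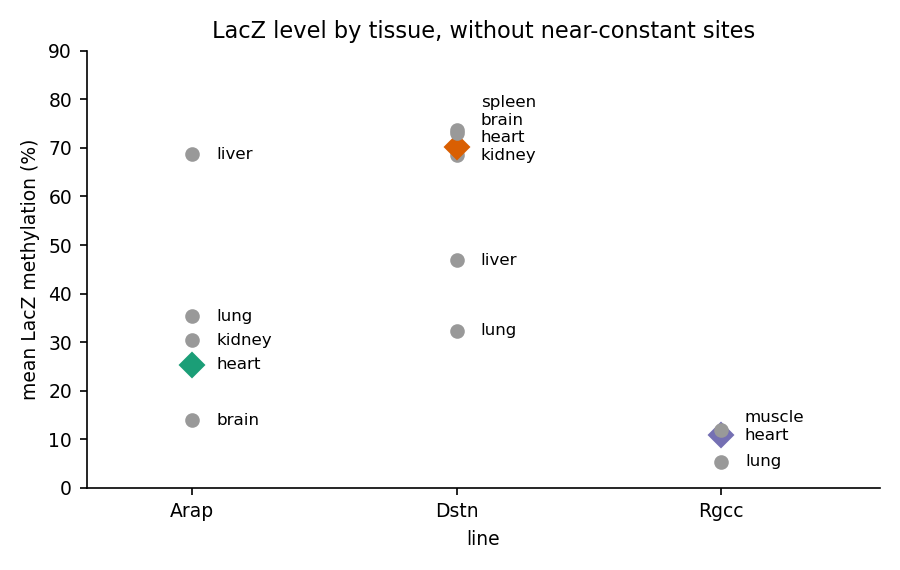
Mean LacZ methylation in percent for each knockout tissue by line, over the 142 sites that are not near-constant; heart is the coloured diamond and the other tissues are grey circles. Dstn heart at 70.1% lies among the upper 4 Dstn tissues, and Arap heart at 25.3% and Rgcc heart at 10.8% lie within the range of their lines.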

How the data were processed

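Titles gave the line, tissue, amplicon and genotype of a library. DNA was treated with bisulfite, amplified and sequenced, per the labels' protocols. Reads were aligned with tools listed as Bowtie2 and Bismark against mm9, per the submitters' processing notes, which give no versions. Each deposited file lists a percent methylation per site with the counts of methylated and unmethylated calls. The authors' percent equalled the share computed from the deposited counts in the 28 island and 14 LacZ libraries of the 3 lines. The rest of the 52 files read, LacZ libraries of other lines, were not compared in this way. No step removing PCR duplicates is given in the sources used here, and unequal amplification of converted and unconverted strands can shift a level. The completeness of bisulfite conversion was not measured here, and unconverted cytosine is counted as methylated.

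Sites with at least 10 reads were kept, for islands within 2000 bp of the line's median position, which left out at most 0.0133% of the calls of a heart island library. A level is the unweighted mean percent over sites covered in both island libraries of a tissue, or over the LacZ sites covered in every LacZ library of the 3 lines. No pair of libraries held identical values. RefSeq promoter windows were placed by the spacing of CpG sites, and 3 of 3 genes were matched.

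Lines were compared by exact sign-flip permutation and tissues by exact permutation within lines. The site test was edgeR's quasi-likelihood test (edgeR 4.0.16, R 4.3.3), fitted to the methylated and the unmethylated counts with terms for tissue, genotype and genotype in heart, so the other tissues give the spread. limma 3.58.1 on logit values with an offset of 0.5 calls was the alternative. P-values measure the spread between these libraries, which may be technical. The test code was tested on simulated data, where small changes were mostly missed and false calls exceeded the nominal rate in every line, so a count of 0 does not show that sites were unchanged, and a few called sites may be false. Named island sites were, per line, the 3 largest and 2 smallest heart differences and the smallest edgeR p, and named LacZ sites the highest and lowest in each heart and the 3 widest ranges over hearts. Members, lists and tests were chosen with earlier results of these data known. The windows of 100 bases, depth steps, LacZ stretches and tests of the knockout and wild-type levels were added after seeing the data. Python 3.11.15 with numpy 2.4.6, pandas 2.3.3, scipy 1.17.1, statsmodels 0.14.6 and matplotlib 3.10.9 was used for the rest.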

Additional observations from a re-analysis of the deposited data

Results flagged for a closer look

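Within each line, the tissues with 4 to 10 values were searched for one lying far from the rest by Dixon's criterion, which chance meets in about 1 group in 20. Arap wild-type liver stood apart from the other Arap tissues, with an island level of 3.08% against 0.532% to 0.633%, and it enters the spread against which Arap heart was tested. Dstn lung stood apart in its knockout minus wild-type difference, 0.601 points against 0.0775 to 0.224 points in the other Dstn tissues, heart included. No heart value of Arap or Dstn was singled out, and Rgcc, with 3 tissues, was not searched.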

How the results depend on the processing

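Of 117 alternative values for 21 results, 96 kept their direction, their side of the threshold or their size. Using every read depth, the Arap difference was -0.074 points and the knockout level of heart against other tissues -0.366 (p = 0.789, exact permutation). Pooling reads gave 0.389 points in Dstn and a heart LacZ level of -1.14 against other tissues. The median over sites gave -0.109 points in Dstn, 10.2% for Rgcc LacZ, 0.367 points for the knockout level (p = 0.0111) and 0.0392 for the wild-type level (p = 0.789), both by exact permutation. Dropping elevated or near-constant sites gave -0.094 points in Dstn and 10.8% for Rgcc LacZ. Differences of at least 1 point were found at 7 sites in Arap and 40 in Rgcc, and of at least 5 points at 13 in Rgcc. edgeR without a heart term called 5 sites in Arap and 27 in Rgcc, and limma 0 in Rgcc. Leaving out 1 line, the LacZ level against other tissues ran from -4.30 points without Dstn to 5.96 without Arap (-0.281 without Rgcc), and the LacZ start minus end from -1.15 to 16.2. Leaving out 1 tissue, the sites called in Arap heart ran from 0 to 23 (without liver), and the Dstn sites differing from other tissues from 0 to 1 (without lung). The cause was not tested. Rgcc has too few tissues to leave one out. Knockout and wild type were paired by line and tissue in the tests above, and the labels give no replicate numbers that could form another block. Depth limits the Rgcc sites before the start and the fourth LacZ stretch.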
